A study of Homo sapiens with 9 samples.

Results

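SELENOP, the gene of the plasma selenium carrier selenoprotein P, was described here together with 7 other selenoprotein genes (SELENOK, SELENOS, SELENOM, SELENOT, SELENOF, SELENOH and SELENOW) and with SEPHS2 and SEPSECS, enzyme genes of selenocysteine synthesis. All probe sets that carried exactly 1 gene and that gene's current or older symbol were taken, which gave 23 probe sets for the 10 genes out of 41091 single-gene probe sets for 19775 genes. No probe set shared between genes held a member (0 found). SELENOP was chosen by its measured difference from mock after Nrf2 siRNA, in its probe set with the highest mean over all arrays. That difference stood 2nd from the top of 19775 genes, so the differences of SELENOP are given as a description with no test. The other genes were listed by family and pathway, with earlier results of these data known.

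The cells were A549, an established human lung adenocarcinoma line, grown in high-glucose medium with serum. They received 25 nM of an siRNA against the NRF2 mRNA (Nrf2 siRNA), 25 nM of a non-targeting siRNA (NS siRNA), or transfection reagent alone (mock), and total RNA was taken after 96 h. Each group held 3 biological replicates, each read on 1 Affymetrix array, and values are log2 expression levels made by the authors with RMA, a method that summarises the probes of a probe set after normalization between arrays. The Nrf2 siRNA group had neither a rescue arm nor a different siRNA beside it. Loss of NRF2 and off-target action of the siRNA therefore cannot be told apart.

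Selenoproteins carry selenocysteine, an amino acid built on its own transfer RNA and inserted at UGA codons that would otherwise stop translation. Insertion needs a stem-loop in the mRNA and the factors that read it. SEPHS2, itself a selenoprotein, makes selenophosphate, the selenium donor, and SEPSECS, which is not a selenoprotein, uses that donor to turn phosphoseryl-tRNA into selenocysteinyl-tRNA. SELENOP is secreted, mainly by the liver, and carries selenium to other tissues, where LRP8 and LRP2 take it up. SELENOK, SELENOS, SELENOM, SELENOT and SELENOF are proteins of the endoplasmic reticulum (ER), several of them tied to protein folding or to the removal of misfolded proteins. SELENOW is a small cytosolic and SELENOH a nuclear thioredoxin-fold protein. NRF2 itself is a transcription factor of the antioxidant response, and it is known to drive some selenoprotein genes, such as TXNRD1 and GPX2.

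The siRNA target and a list of NRF2 target genes came first. NFE2L2, which encodes NRF2, stood at 12.07, 11.92 and 11.98 in mock, 12.09, 12.03 and 12.15 in NS siRNA, and 10.12, 10.32 and 10.30 after Nrf2 siRNA. It fell 3.58-fold from the NS siRNA level and 3.34-fold from that of mock (adjusted p = 3.09e-10 and 1.01e-09) in its brightest probe set. Of the other 2 NFE2L2 probe sets, the brighter fell 2.21-fold and 1.99-fold (adjusted p = 6.83e-08 and 5.21e-07), the dimmer differed by -0.11 and -0.07 and did not pass (adjusted p = 0.172 and 0.456), and the mean of the 3 fell by 1.03 and 0.93. Of 13 listed NRF2 targets 11 were measured, and 11 fell and 0 rose against both controls, for example GCLM (4.72-fold against NS siRNA), the glutamate-cysteine ligase subunit, and SLC7A11 (4.02-fold), the cystine importer. Over all genes 24.7% fell and 20.4% rose against NS siRNA, and 15.5% fell and 15.6% rose against mock. Arrays of 1 group correlated at 0.9979 to 0.9987 and arrays of different groups at 0.9839 to 0.9936 over all probe sets, and the median spread between replicates was 0.0732 (SD, log2), and precision is limited by having 3 arrays a group. The keratin KRT18 stood at 14.88, 14.94 and 14.99 in mock, NS siRNA and Nrf2 siRNA and did not pass against either control. All 6 listed epithelial markers lay above 7.54, the median of all probe sets, and their mean level ran from 11.84 to 11.92 in mock, 12.21 to 12.25 in NS siRNA and 12.48 to 12.62 after Nrf2 siRNA; the part of this shift in the results was not tested. Within the list KRT19 rose 2.22-fold and 3.87-fold against NS siRNA and mock, EPCAM 1.40-fold and 2.29-fold and CDH1 1.39-fold and 1.92-fold (adjusted p at most 0.00015), KRT8 rose against mock only (adjusted p = 0.00395), and KRT7 fell against both (adjusted p = 0.0291 and 0.0151). Outside it, the leukocyte marker PTPRC stood at 7.13 to 7.26 and the hepatocyte marker ALB at 5.65 to 5.72 over the 3 group means. Not all members of those lists were dim. The leukocyte markers CD14 and CD3E (2 of 6) and the hepatocyte markers TTR and SERPINA1 (2 of 4) lay above the median of all probe sets.

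SELENOP was read by 3 probe sets, and 1 of them differed widely. In probe set 201427_s_at, the only one that the array's annotation ties to a RefSeq mRNA, the level was 4.97, 4.90 and 5.08 in mock, 5.38, 5.39 and 5.29 in NS siRNA, and 7.77, 8.20 and 8.16 after Nrf2 siRNA. The 3 Nrf2 siRNA arrays therefore lay above all 6 controls with a gap of several times the replicate spread, and the NS siRNA arrays lay above the mock arrays. The group means were 4.98 ± 0.09 (SD, n = 3) in mock, 5.35 ± 0.05 in NS siRNA and 8.04 ± 0.24 after Nrf2 siRNA. The level after Nrf2 siRNA was 6.46-fold above NS siRNA (2.69 ± 0.09, SE, log2) and 8.34-fold above mock (3.06 ± 0.09), and NS siRNA stood 0.37 above mock. Against NS siRNA this placed SELENOP 15th of 19775 genes from the top. Both this rank and the 2nd place against mock used 201427_s_at, the SELENOP probe set with the highest mean over all arrays. It was highest only through the Nrf2 siRNA arrays. In the controls 231669_at was brighter (5.72 in mock, 5.65 in NS siRNA). After Nrf2 siRNA 231669_at differed by 0.04 from NS siRNA and -0.03 from mock. The ranks thus rest on a probe set picked through the group in which it was high. The control levels of 201427_s_at lay below the median of all probe sets and come with no detection call, so background may make up part of them and the folds are uncertain.

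The other 2 SELENOP probe sets stayed dim in every group. Probe set 231669_at read 5.75, 5.73 and 5.67 in mock, 5.67, 5.54 and 5.74 in NS siRNA, and 5.65, 5.71 and 5.71 after Nrf2 siRNA. Probe set 229620_at read 4.22, 4.20 and 4.13, then 4.07, 4.20 and 4.20, then 4.03, 4.48 and 4.17 in the same order. The groups overlapped in both, and their differences between Nrf2 siRNA and either control ran from -0.03 to 0.07. Averaging the 3 probe sets, as a gene mean does, gave 0.93 against NS siRNA and 1.03 against mock in place of 2.69 and 3.06. Which part of the transcript each probe set reads is not given in the sources used here.

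SELENOP is best known as a liver and macrophage transcript, so markers of such cells are given beside it. The mean level of 4 hepatocyte markers ran from 7.28 to 7.32 in mock, 7.34 to 7.40 in NS siRNA and 7.32 to 7.40 after Nrf2 siRNA, and 2 of the 4 lay above the median of all probe sets. ALB and APOA2 (6.41 to 6.49) lay below it, and TTR (8.74 to 9.28) and SERPINA1 (8.14 to 8.30) lay above it. TTR, the thyroid hormone carrier transthyretin, rose by 0.31 and SERPINA1, an antiprotease, fell by 0.16 against NS siRNA (adjusted p = 0.000405 and 0.0226). The mean of 6 leukocyte markers ran from 7.15 to 7.26 in mock, 7.26 to 7.29 in NS siRNA and 7.32 to 7.47 after Nrf2 siRNA, and 2 of the 6 lay above that median. In that list CD14, the lipopolysaccharide co-receptor, rose by 0.96 (adjusted p = 1.24e-07), while PTPRC (-0.00), CD163 (-0.13), CSF1R (-0.08) and MRC1 (0.00) did not pass the test against NS siRNA. Mean levels of 4 endothelial, 4 fibroblast and 3 alveolar type 2 markers spanned 6.88 to 7.04, 7.70 to 7.85 and 8.58 to 8.76 over the 9 arrays. Of these, the fibroblast marker THY1 rose against both controls (0.34 and 0.22, adjusted p = 0.000496 and 0.0135), the endothelial marker CDH5 rose against mock (0.23, adjusted p = 0.0381), and the surfactant gene SFTPC fell against NS siRNA (-0.16, adjusted p = 0.0312), while the others did not pass against either. The part of these genes in the SELENOP result was not tested. In cultures read in bulk, more cells with a transcript and more transcript per cell cannot be told apart.

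The bases before the SELENOP start are shown because this gene had the widest difference of the set, those before SEPHS2 because it fell most, and those before SELENOK because it shared a motif with SELENOP. Each run is the 250 bases before the RefSeq start, 5′ to 3′ on the gene's strand, and capitals mark matches to the motifs searched.
SELENOP promoter (GRCh38.p14, chr5:42811893-42812142, minus strand): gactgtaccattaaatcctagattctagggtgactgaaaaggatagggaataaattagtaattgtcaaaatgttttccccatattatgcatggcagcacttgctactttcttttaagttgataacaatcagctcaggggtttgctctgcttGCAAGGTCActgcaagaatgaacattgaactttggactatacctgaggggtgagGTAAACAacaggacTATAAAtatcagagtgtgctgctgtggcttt
SEPHS2 promoter (GRCh38.p14, chr16:30445875-30446124, minus strand): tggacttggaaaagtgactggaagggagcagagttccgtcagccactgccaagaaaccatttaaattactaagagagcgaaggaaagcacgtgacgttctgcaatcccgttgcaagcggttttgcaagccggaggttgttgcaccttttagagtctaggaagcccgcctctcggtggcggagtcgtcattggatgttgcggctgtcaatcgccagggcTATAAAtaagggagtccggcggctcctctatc
SELENOK promoter (GRCh38.p14, chr3:53891860-53892109, minus strand): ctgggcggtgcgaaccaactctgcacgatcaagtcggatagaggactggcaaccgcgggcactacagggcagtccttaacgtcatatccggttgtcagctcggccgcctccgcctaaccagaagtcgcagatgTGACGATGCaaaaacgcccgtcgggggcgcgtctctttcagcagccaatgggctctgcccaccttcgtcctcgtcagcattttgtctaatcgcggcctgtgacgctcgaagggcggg
The following motifs were searched on both strands: TGACNNNGC, the core of the antioxidant response element that NRF2 binds, GTAAACA, a FOXO element, TATAAA, the TATA box, and the ER stress response element. Sequences were found for 8 of the 10 genes, in 9 windows because SELENOF has 2 starts. The antioxidant core matched before SELENOP, on the opposite strand 99 to 91 bases before the start, and before SELENOK, on the gene's strand 117 to 109 bases before it. That core occurs in 10.9% of 35116 promoters in the table. The FOXO element matched before SELENOP alone among the 9 windows, 45 to 39 bases before the start (2.98% of all promoters), next to a TATA box at 31 to 26 bases, and SEPHS2 had a TATA box at 32 to 27 bases (10.7% of all promoters). No member window held the ER stress response element (0.074% of all promoters), which says only that these letters are not in this window. None of the matches overlapped another. A match describes the letters and does not show binding.

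**Figure D1:**
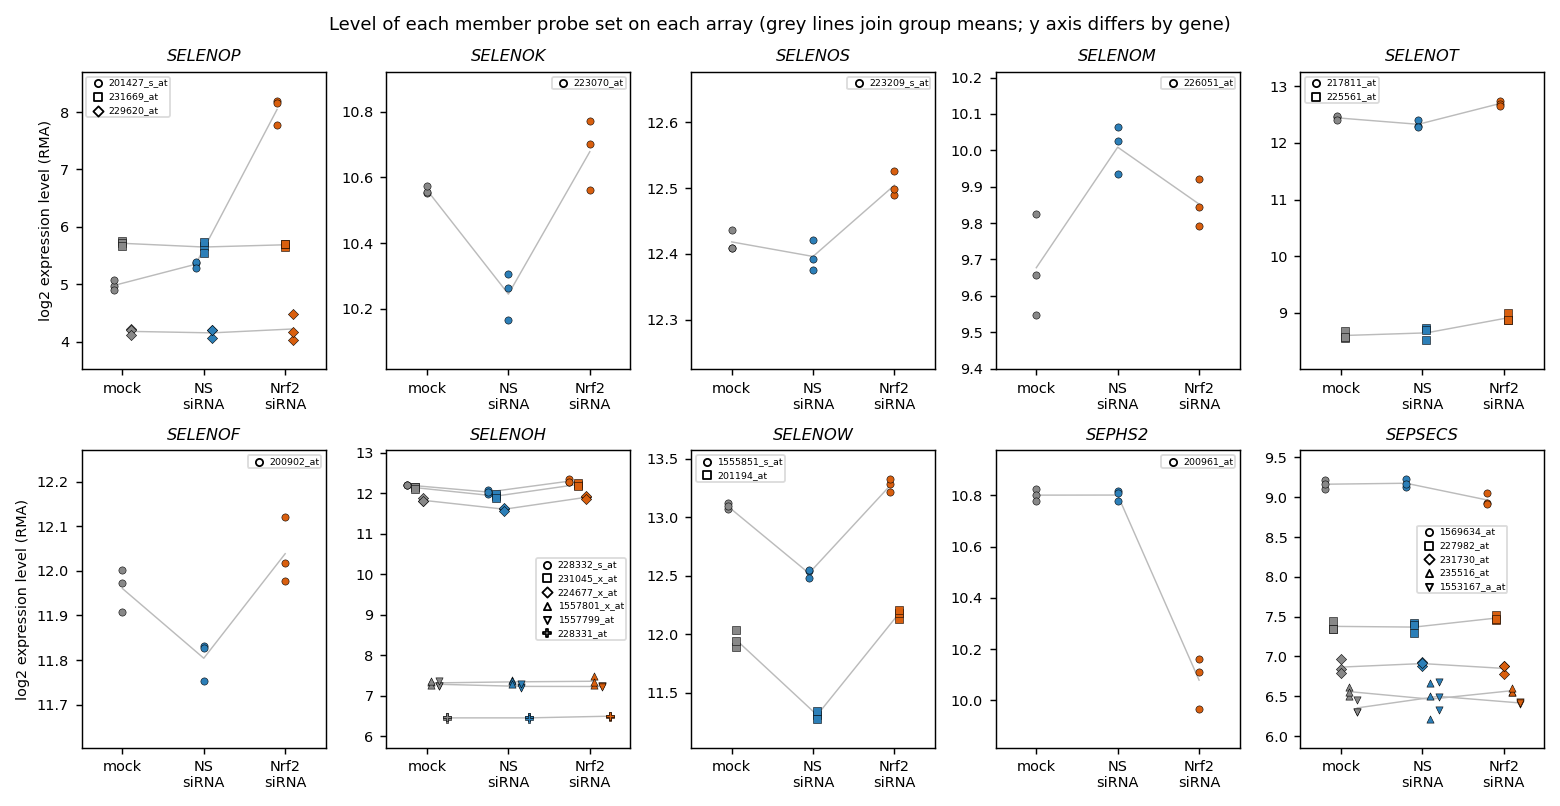
Log2 expression level (y axis, different for each gene) of every probe set of the 10 genes on each of the 9 arrays, by group (x axis; grey mock, blue NS siRNA, orange Nrf2 siRNA), with symbols for probe sets and grey lines through group means. In SELENOP only the probe set drawn as circles separates, from 4.98 in mock to 8.04; SELENOW, SELENOK, SELENOF and the bright SELENOH probe sets dip in NS siRNA, and SEPHS2 drops after Nrf2 siRNA alone.

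SELENOW, a small cytosolic selenoprotein, was higher after Nrf2 siRNA and lower after NS siRNA than in mock. Probe set 201194_at stood at 11.89, 12.03 and 11.94 in mock, 11.31, 11.28 and 11.34 in NS siRNA, and 12.13, 12.18 and 12.21 after Nrf2 siRNA. No 2 groups overlapped. The rise after Nrf2 siRNA was 1.82-fold from NS siRNA (0.86 ± 0.05, SE, log2, adjusted p = 3.04e-08) and 1.16-fold from mock (0.22 ± 0.05, adjusted p = 0.00565). The fall of NS siRNA below mock was 1.56-fold (adjusted p = 1.22e-06). The brighter probe set, 1555851_s_at, read 13.07, 13.12 and 13.09 in mock, 12.54, 12.48 and 12.55 in NS siRNA, and 13.21, 13.28 and 13.32 after Nrf2 siRNA, again with no overlap. It rose by 0.75 against NS siRNA and by 0.18 against mock (adjusted p = 6.93e-08 and 0.0143), and the call against mock was lost without mock replicate 1 (0.16, adjusted p = 0.0587) or Nrf2 siRNA replicate 3 (0.15, adjusted p = 0.0583). In 201194_at the 0.86 between the siRNAs thus held 0.65 of NS siRNA below mock.

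SELENOH, a nuclear thioredoxin-fold selenoprotein, had 6 probe sets in a bright and a dim group. The 3 bright ones rose against NS siRNA by 0.27 (228332_s_at), 0.29 (231045_x_at) and 0.29 (224677_x_at), with adjusted p = 0.000448, 0.000249 and 0.000282. Against mock they differed by 0.09, 0.08 and 0.07 and did not pass (adjusted p = 0.166, 0.257 and 0.312). NS siRNA lay below mock in all 3, by 0.17, 0.21 and 0.22 (adjusted p = 0.0145, 0.00456 and 0.00413). Without NS siRNA replicate 2 the first of these was -0.15 with adjusted p = 0.0624. On single arrays 228332_s_at read 12.20, 12.21 and 12.21 in mock, 12.08, 11.99 and 12.02 in NS siRNA, and 12.27, 12.35 and 12.28 after Nrf2 siRNA, so the NS siRNA arrays were lowest. The 3 dim probe sets, at mean levels of 6.47 to 7.34, differed by -0.00 to 0.04 against NS siRNA and did not pass (smallest adjusted p = 0.467), and the mean of all 6 gave 0.15. Probe sets whose names end in x_at may also read similar sequences of other genes, which makes 231045_x_at, 224677_x_at and the dim 1557801_x_at uncertain.

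Of the ER selenoproteins, SELENOT passed the test against both controls. SELENOT has a thioredoxin reductase-like fold and bears on calcium handling and secretion. Its probe set 217811_at stood at 12.45, 12.47 and 12.40 in mock, 12.31, 12.40 and 12.28 in NS siRNA, and 12.74, 12.68 and 12.66 after Nrf2 siRNA, so all 3 Nrf2 siRNA arrays were above the controls. Its rise was 1.29-fold over NS siRNA and 1.19-fold over mock (adjusted p = 6.79e-05 and 0.00217). The dimmer 225561_at read 8.56, 8.67 and 8.58, then 8.73, 8.69 and 8.52, then 8.87, 9.0035 and 8.87, and rose 1.20-fold and 1.24-fold (adjusted p = 0.00562 and 0.00296). NS siRNA and mock did not differ past the threshold in either probe set (-0.11 and 0.05, adjusted p = 0.124 and 0.667).

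SELENOK and SELENOF rose against NS siRNA and did not pass against mock. SELENOK, a membrane protein that works with the palmitoyltransferase ZDHHC6 and with ER-associated degradation, read 10.55, 10.56 and 10.57 in mock, 10.26, 10.31 and 10.17 in NS siRNA, and 10.70, 10.77 and 10.56 after Nrf2 siRNA. The NS siRNA arrays were lowest, and the lowest Nrf2 siRNA array overlapped with mock. It was 0.43 ± 0.06 (SE) above NS siRNA (adjusted p = 6.15e-05) and 0.12 above mock (95% interval -0.01 to 0.25, adjusted p = 0.176), and NS siRNA was 0.32 lower than mock (-0.32, adjusted p = 0.00147). Without Nrf2 siRNA replicate 3 the difference from mock was 0.18 and passed (adjusted p = 0.0433). SELENOF, which binds the folding sensor UGGT1, read 11.97, 11.91 and 12.001 in mock, 11.83, 11.75 and 11.83 in NS siRNA, and 11.98, 12.02 and 12.12 after Nrf2 siRNA. It rose by 0.23 against NS siRNA (adjusted p = 0.00298) and differed by 0.08 from mock (-0.04 to 0.19, adjusted p = 0.319). The difference of SELENOF between NS siRNA and mock, -0.16 (adjusted p = 0.0453), lost its call in 10 of 21 alternative settings. It was lost without mock replicate 1 or 3, any single NS siRNA replicate, or Nrf2 siRNA replicate 2, where adjusted p ran from 0.0507 to 0.153. The call was also lost with quantile normalization (adjusted p = 0.102), with all probe sets except controls (0.0545), without moderation (0.0623) and at the 0.01 threshold.

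SELENOS and SELENOM did not pass the test between Nrf2 siRNA and either control. SELENOS, a membrane partner of VCP and the derlins in ER-associated degradation, read 12.44, 12.41 and 12.41 in mock, 12.39, 12.42 and 12.38 in NS siRNA, and 12.49, 12.53 and 12.50 after Nrf2 siRNA. The 3 Nrf2 siRNA arrays did lie above the 6 controls, by 0.11 on average against NS siRNA (0.01 to 0.20, adjusted p = 0.0611) and 0.09 against mock (adjusted p = 0.17). The call against NS siRNA passed in 6 of 21 alternative settings, with adjusted p from 0.00306 to 0.15 over all of them. SELENOM, a thioredoxin-fold protein of the ER lumen, read 9.55, 9.83 and 9.66 in mock, 10.07, 10.02 and 9.94 in NS siRNA, and 9.84, 9.92 and 9.79 after Nrf2 siRNA. Among members other than SELENOP it was the only one called higher in NS siRNA than in mock, by 0.33 ± 0.07 (SE, adjusted p = 0.00314). Nrf2 siRNA lay between the controls, at -0.16 against NS siRNA and 0.17 against mock (adjusted p = 0.0894 and 0.0816), and both passed without mock replicate 2 (-0.16 and 0.25, adjusted p = 0.0463 and 0.0137).

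SEPHS2, the selenophosphate synthetase, fell after Nrf2 siRNA and had nearly equal levels in the controls. It read 10.83, 10.80 and 10.78 in mock, 10.78, 10.82 and 10.81 in NS siRNA, and 9.97, 10.16 and 10.11 after Nrf2 siRNA. The Nrf2 siRNA arrays lay well below the 6 controls, which spanned 10.78 to 10.83. The fall was 1.65-fold against NS siRNA (-0.72 ± 0.05, SE, log2, adjusted p = 2.96e-07) and 1.65-fold against mock (adjusted p = 6.23e-07), and the controls differed by 0.00 (-0.12 to 0.12). The call held in each of 21 alternative settings against both controls.

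SEPSECS, the selenocysteine synthase, had 5 probe sets. The brightest, 1569634_at, read 9.21, 9.11 and 9.17 in mock, 9.13, 9.23 and 9.17 in NS siRNA, and 9.05, 8.92 and 8.92 after Nrf2 siRNA. The Nrf2 siRNA arrays were below all controls, and the fall was 1.16-fold from NS siRNA and 1.15-fold from mock (adjusted p = 0.00709 and 0.0145). The call against mock was lost without mock replicate 1 (adjusted p = 0.0643), Nrf2 siRNA replicate 2 (0.0511) or Nrf2 siRNA replicate 3 (0.0571). The other 4 probe sets, at mean levels of 6.42 to 7.41, differed by -0.08 to 0.11 against NS siRNA and none passed (smallest adjusted p = 0.0997). Of these, 227982_at lay above all controls after Nrf2 siRNA (7.52, 7.45 and 7.47), opposite to the brightest one, and for the mean of the 5 the difference was -0.03 (adjusted p = 0.656) against NS siRNA and -0.01 (0.928) against mock. Without NS siRNA replicate 3, 1553167_a_at was 0.23 above mock in NS siRNA (adjusted p = 0.0305).

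**Figure D2:**
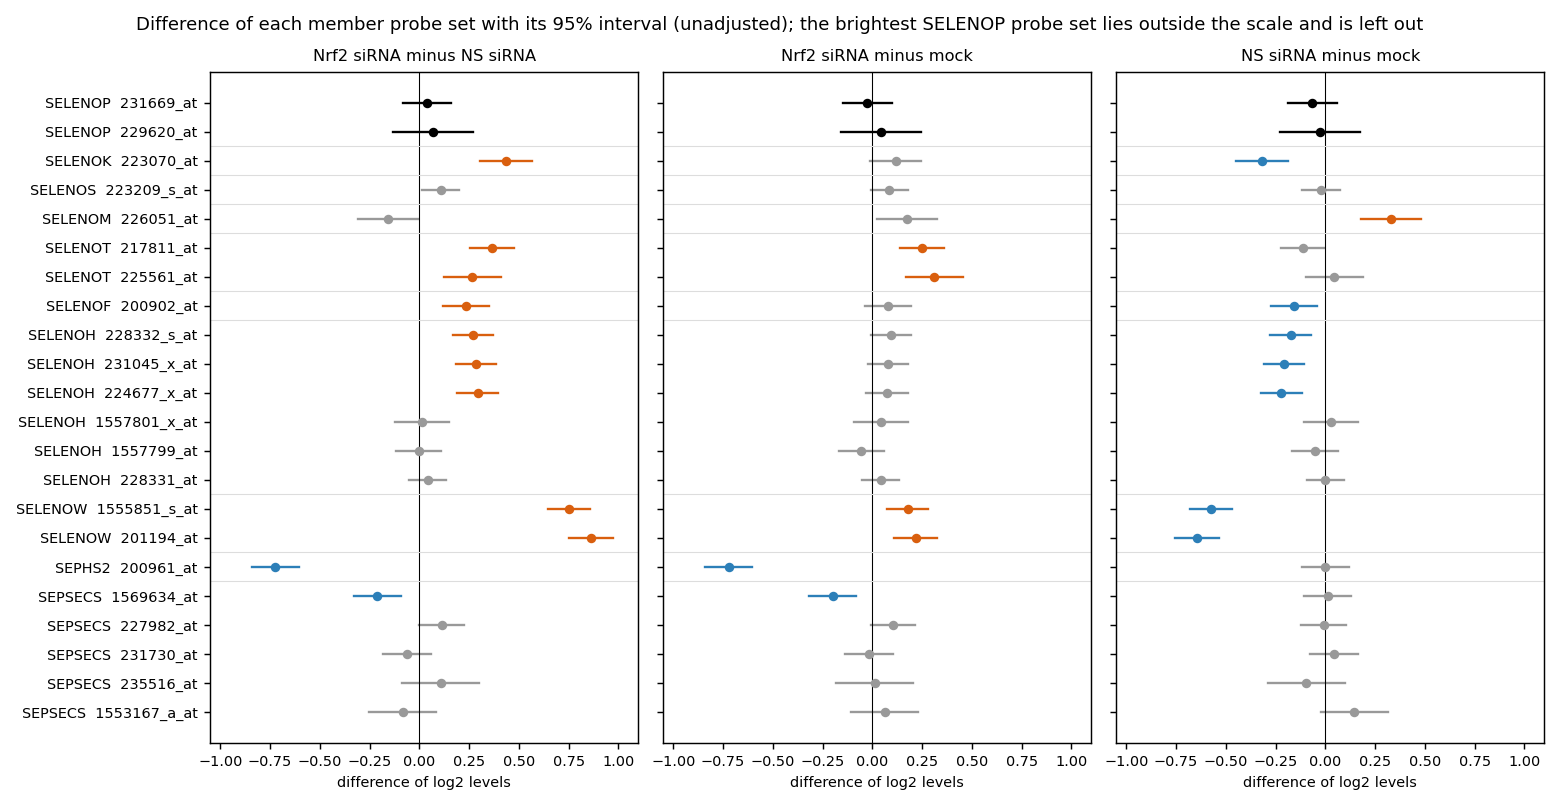
Difference of log2 levels (x axis) with its unadjusted 95% interval for 22 member probe sets in 3 comparisons, leaving out SELENOP 201427_s_at, which lies off the scale; orange and blue mark those past adjusted p of 0.05 in the higher and lower direction, grey those not past it, and black the SELENOP probe sets, which were not tested. SELENOT, SELENOW, SEPHS2 and the brightest SEPSECS probe set pass the threshold in both comparisons of Nrf2 siRNA. SELENOW, SELENOK, SELENOF and the bright SELENOH probe sets pass it against NS siRNA and in the panel of NS siRNA minus mock.

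Counted over the 20 probe sets other than SELENOP, 9 rose and 2 fell in Nrf2 siRNA against NS siRNA, where 20.2% and 21.5% of all 41091 single-gene probe sets did (41.7% in either direction). Their median difference was 0.11, against -0.04 over all probe sets. Against mock, 4 rose and 2 fell (15.2% and 13.3% of all, 28.6% together), with a median of 0.08 against -0.01. In NS siRNA against mock, 1 rose and 7 fell (12.4% and 13.5% of all, 25.9% together), with a median of -0.04 against 0.03. The comparisons share arrays, so their counts are not independent of each other. Several probe sets also read the same gene. The 9 rises were in SELENOH, SELENOW, SELENOT, SELENOK and SELENOF, and the 4 in SELENOT and SELENOW. The 7 falls were in SELENOH, SELENOW, SELENOK and SELENOF. A fit of only the brightest probe set per gene had 6 of 9 genes higher and 2 lower against NS siRNA (47.6% of all genes in either direction). Against mock 2 rose and 2 fell (33%), and in NS siRNA against mock 1 rose and 4 fell (30.8%). In 8 of the 20 all 3 Nrf2 siRNA arrays lay above all 6 controls, as in 14.3% of all probe sets, and in 2 they lay below, as in 14% of all. None of the 20 differed by 2-fold or more past the threshold in any comparison; the shares of all probe sets that did were 2.57%, 1.33% and 0.803% in the order given. Of all 23 member probe sets, 13 had a mean above the median of all probe sets and 10 lay below it. The 13 held 11, 6 and 8 calls in the order given, which are all those outside SELENOP. Calls were more frequent among bright probe sets in general. A fit of only the 23114 probe sets above the median called 61.2%, 46.4% and 43.7% of them, and 12, 6 and 8 of the 13.

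Of the other selenoprotein genes more fell than rose. Of 16 listed genes 13 were measured, each by its brightest probe set, and 2 rose and 7 fell against NS siRNA (20.4% and 24.7% of all genes, 45.1% together), with a median of -0.24 against -0.05 over all genes. Against mock 1 rose and 7 fell (15.6% and 15.5% of all genes, 31.1% together), with a median of -0.18 against -0.02. In NS siRNA against mock 4 rose and 1 fell (14.1% and 14.3% of all genes, 28.4% together), with a median of 0.09 against 0.03. DIO2, the deiodinase that activates thyroid hormone, read 9.63, 9.45 and 9.56 in mock, 10.62, 10.75 and 10.23 in NS siRNA, and 8.90, 8.71 and 8.64 after Nrf2 siRNA. It was high in NS siRNA and low after Nrf2 siRNA, a fall of 3.43-fold from NS siRNA and 1.73-fold from mock (adjusted p = 6.10e-08 and 0.000154), and the remaining 4 DIO2 probe sets also fell. TXNRD1, the cytosolic thioredoxin reductase, fell 3.30-fold, and the glutathione peroxidases GPX2 and GPX3 fell 2.62-fold and 2.02-fold against NS siRNA (adjusted p = 1.08e-10, 1.65e-08 and 1.70e-07). Against mock these 3 genes fell 2.84-fold, 2.09-fold and 2.07-fold (adjusted p = 6.65e-10, 3.89e-07 and 2.62e-07). NS siRNA stood above mock by 0.22 in TXNRD1 and 0.33 in GPX2 (adjusted p = 0.00756 and 0.00656), and differed by -0.04 in GPX3 (adjusted p = 0.756). Averaged over all probe sets of each gene, log2 differences against NS siRNA were -0.86 for TXNRD1 in place of -1.72, and -1.16 for DIO2 in place of -1.78. SELENON, an ER calcium regulator, read 10.43, 10.61 and 10.43 in mock, 9.59, 9.56 and 9.47 in NS siRNA, and 10.44, 10.49 and 10.60 after Nrf2 siRNA. Only the NS siRNA arrays stood apart: it rose 1.96-fold against NS siRNA (adjusted p = 8.85e-08) and differed by 0.02 from mock (-0.12 to 0.16, adjusted p = 0.853).

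Among genes of selenocysteine insertion and selenium use, the widest differences against NS siRNA came from low levels in NS siRNA. Of 14 genes 4 rose and 5 fell against NS siRNA (20.4% and 24.7% of all genes, 45.1% together), with a median of -0.02 against -0.05 over all genes. Against mock 1 rose and 4 fell (15.6% and 15.5% of all genes, 31.1% together), with a median of -0.09 against -0.02. In NS siRNA against mock 2 rose and 4 fell (14.1% and 14.3% of all genes, 28.4% together), with a median of 0.03 against 0.03. SEPHS1, the relative of SEPHS2 that does not make selenophosphate, read 11.25, 11.28 and 11.12 in mock, 10.14, 10.11 and 10.07 in NS siRNA, and 11.22, 11.23 and 11.21 after Nrf2 siRNA. It thus rose 2.16-fold against NS siRNA (adjusted p = 4.36e-09) and differed by 0.00 from mock (-0.11 to 0.12), where SEPHS2 fell against both. SELENBP1, a selenium-binding methanethiol oxidase, rose 2.20-fold against NS siRNA (adjusted p = 1.51e-08) and differed by -0.12 from mock (adjusted p = 0.189). SECISBP2L, a relative of the stem-loop binding protein SECISBP2, rose 2.003-fold against NS siRNA (adjusted p = 2.29e-07), or by 0.66 on the log2 scale for the mean of its probe sets. Its 0.21 against mock (adjusted p = 0.0467) was lost in 13 of 21 alternative settings, among them without any one of mock replicates 1 to 3, NS siRNA replicate 3, or Nrf2 siRNA replicates 2 and 3 (adjusted p from 0.0611 to 0.161), and with the replicate number as a block (adjusted p = 0.0706).

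PSTK, the kinase that acts just before SEPSECS, read 7.65, 7.75 and 7.49 in mock, 8.28, 8.13 and 7.96 in NS siRNA, and 7.31, 7.40 and 7.25 after Nrf2 siRNA. It fell 1.74-fold against NS siRNA (adjusted p = 5.60e-06) and 1.24-fold against mock (adjusted p = 0.0134). The mean of its probe sets gave -0.45 against NS siRNA in place of -0.80. The call against mock was lost without mock replicate 2 (adjusted p = 0.064) or Nrf2 siRNA replicate 3 (0.0561), without moderation (0.0833) and at the 0.01 threshold. PSTK lay near the median of all probe sets. EIF4A3, an RNA helicase that binds the stem-loop, fell by 0.30 and 0.19 (adjusted p = 0.000159 and 0.00681). SECISBP2 itself and the elongation factor EEFSEC differed by 0.09 and -0.06 against NS siRNA and did not pass (adjusted p = 0.23 and 0.425); both were picked after their values were seen.

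LRP8, a receptor for SELENOP uptake, fell after Nrf2 siRNA. It read 9.72, 9.66 and 9.56 in mock, 9.36, 9.27 and 9.26 in NS siRNA, and 8.61, 8.78 and 8.65 after Nrf2 siRNA, with no overlap between groups. The fall was 1.53-fold from NS siRNA and 1.95-fold from mock (adjusted p = 3.24e-06 and 1.17e-07), and the other 2 LRP8 probe sets fell too. The receptors LRP2 and LRP1 did not pass (-0.09 and 0.12, adjusted p = 0.151 and 0.0651 against NS siRNA). Of 4 measured transcription factors and coactivators known to act on SELENOP in liver, 1 rose and 0 fell against NS siRNA (20.4% and 24.7% of all genes), 2 rose and 0 fell against mock (15.6% and 15.5%), and 1 rose and 1 fell in NS siRNA against mock (14.1% and 14.3%). Their medians were 0.00, 0.36 and 0.03, against -0.05, -0.02 and 0.03 over all genes. FOXO3, a forkhead factor, read 10.32, 10.35 and 10.31 in mock, 10.08, 10.12 and 10.09 in NS siRNA, and 10.86, 10.95 and 10.84 after Nrf2 siRNA, a rise of 1.73-fold and 1.48-fold (adjusted p = 3.27e-08 and 1.55e-06), or by 0.42 and 0.35 on the log2 scale for the mean of its probe sets. FOXO1, a related factor named after its values were seen, rose 1.62-fold against mock and stood 1.70-fold higher in NS siRNA than in mock (adjusted p = 3.45e-07 and 2.14e-07), but did not pass between the siRNAs (-0.07, adjusted p = 0.258).

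Partners of the ER selenoproteins in ER quality control were measured for 10 of 12 genes, of which 5 rose and 2 fell against NS siRNA (20.4% and 24.7% of all genes), with a median of 0.16 against -0.05 over all genes. Against mock 2 rose and 1 fell (15.6% and 15.5% of all genes, median -0.00 against -0.02), and in NS siRNA against mock 0 rose and 5 fell (14.1% and 14.3%, median -0.17 against 0.03). SEL1L, the scaffold of the ER degradation ligase, rose by 0.72 against NS siRNA (adjusted p = 9.24e-08) and differed by 0.06 from mock (adjusted p = 0.445). HERPUD1, a stress-induced ER membrane protein, rose by 0.82 and 0.44 (adjusted p = 1.02e-07 and 5.23e-05), or by 0.44 and 0.23 for the mean of its probe sets. UGGT1, the partner of SELENOF, rose by 0.58 and 0.17 (adjusted p = 2.45e-07 and 0.00916), and 3 of its 5 probe sets had a positive difference against NS siRNA. The mean of the UGGT1 probe sets gave 0.18 against NS siRNA and -0.043 against mock (adjusted p = 0.00474 and 0.511). DERL1, a derlin that binds SELENOS, was at -0.37 and -0.31 in its brightest probe set (adjusted p = 2.25e-05 and 0.000168), its other 3 probe sets did not pass, and their mean with it gave -0.06 and -0.06 (adjusted p = 0.198 and 0.26). VCP, the ATPase that pulls proteins from the ER, fell by 0.29 against NS siRNA (adjusted p = 0.00109), or by 0.19 for the mean of its probe sets. Against mock VCP was at -0.16 (adjusted p = 0.0512), or -0.08 for that mean (0.211). The difference from mock passed in 6 of 21 alternative settings, among them without Nrf2 siRNA replicate 2 (0.0228). Over all of them adjusted p ran from 0.00789 to 0.211.

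**Figure D3:**
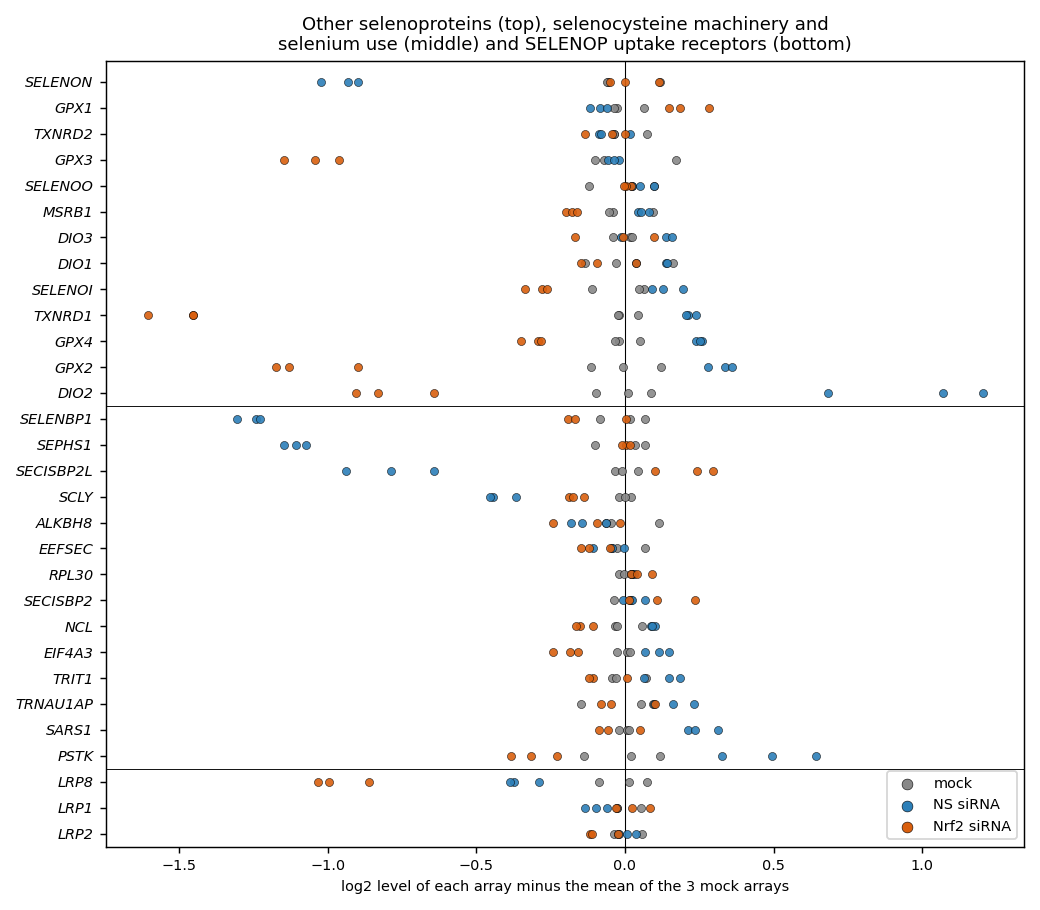
Log2 level of each array minus the mean of the 3 mock arrays (x axis), for other selenoproteins, genes of selenocysteine insertion and selenium use, and SELENOP receptors (y axis; grey mock, blue NS siRNA, orange Nrf2 siRNA; 1 point per array, brightest probe set of each gene). SELENBP1, SEPHS1, SELENON and SECISBP2L are low in NS siRNA only, while TXNRD1, GPX2, GPX3 and LRP8 are lowest after Nrf2 siRNA.

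Over the 9 arrays, the 5 genes whose level ran most like the SELENOP probe set 201427_s_at, among probe sets above the median of all, were ACBD5 (Pearson r = 0.9979), DUSP6 (0.9976), SOX2 (0.9974), CDC42EP3 (0.9968) and TNFRSF11A (0.9967). The arrays are 3 groups of 3, so these values mostly restate a step between groups. Of the member probe sets, SEPHS2 ran most opposite to it (r = -0.9691), and among those that ran with it SELENOS had r = 0.9119. ACBD5, a peroxisomal membrane protein, stood 1.64-fold above NS siRNA and 1.81-fold above mock, and DUSP6, a phosphatase of ERK kinases, 2.94-fold and 3.41-fold. Their likeness to SELENOP chose these genes, so their differences are a description with no test. TNFRSF11A lay above the median of all probe sets only through its Nrf2 siRNA arrays (mean 9.29). Its means in mock and NS siRNA were 7.32 and 7.42, below 7.54.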

How the data were processed

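Total RNA from 9 cultures was read on 1 Affymetrix oligonucleotide array each. The authors deposited log2 values from RMA, per the submitters' processing notes. No RMA version was given. Of 54675 probe sets 62 were controls, 1801 carried several genes and 11721 no gene; the other 41091 took current symbols by Entrez number from RefSeq's GRCh38.p14 gene table (41037 matched).

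Each of the 41091 probe sets was fitted on its own using R 4.3.3 and limma 3.58.1 (a moderated linear model with 3 group means over 9 arrays, 6 residual degrees of freedom, prior 6.2). P values were two-sided, Benjamini-Hochberg adjusted over all 41091, with a threshold of 0.05. SE and 95% intervals are the model's; intervals are not adjusted. The labels call the replicates biological; nothing more is said of the cultures. Related genes used the probe set with the highest mean. Named genes were the members, NFE2L2, up to 5 called genes per list with the smallest adjusted p, and the 5 most like SELENOP; CD14, TTR and single markers were added after their values were seen. Members and lists were chosen with earlier results of these data known. On simulated arrays for Nrf2 siRNA against NS siRNA, with 41091 probe sets, the fit recovered 98.5% of 2-fold, 85.1% of 1.41-fold and 24.2% of 1.19-fold changes. Alternatives were scaling, filtering, 1 value per gene, moderation, groups fitted, a replicate block, each array left out, and a threshold of 0.01. Promoter sequences are from RefSeq. Detection calls and scan dates were not used here. Figures: matplotlib 3.10.9, Python 3.11.15.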

Additional observations from a re-analysis of the deposited data

How the results depend on the processing

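Without SELENOP, counts of member probe sets past the threshold ran over 21 alternative settings from 6 to 12 against NS siRNA (11 as reported), 3 to 9 against mock (6) and 5 to 9 for NS siRNA against mock (8). Settings with 1 value per gene test 9 genes in place of 20 probe sets: averaging gave 7, 3 and 5, the most variable probe set 6, 3 and 5, and the brightest one 5 for NS siRNA against mock. Leaving out 1 array gave 11 to 12, 4 to 7 and 6 to 8. For the 14 genes of selenocysteine insertion and selenium use against mock, the count of 5 became 3 with quantile normalization, 3 without moderation, 1 at the 0.01 threshold, and 3 to 5 with 1 array left out (3 without mock replicate 1, 2 or 3 or Nrf2 siRNA replicate 3). Counts for other selenoproteins ran from 9 to 10 against NS siRNA and 7 to 8 against mock. Of 1140 values of single member probe sets other than SELENOP, 1074 kept sign and side of the threshold, 21 lost and 16 gained a call, and 29 changed sign, none past the threshold on either side (sizes up to 0.11). Of 162 SELENOP values 4 changed sign, all in dim probe sets, and the 3 that moved beyond the replicate spread were averages over its probe sets. Of 1440 values of related genes 10 changed sign; the 1 with a call was UGGT1 against mock averaged over probe sets (-0.043, adjusted p = 0.511). The labels do not say whether replicate numbers pair the samples, and the values do not decide it. Deviations from group means correlated at -0.19 to 0.19 in the 9 pairs of arrays of the same number. In the 18 pairs of different number they correlated at -0.31 to 0.16. With the replicate number as a block, 11, 6 and 8 member probe sets passed, and the only call of a named gene that changed was that of SECISBP2L against mock. Dim probe sets, below 7.54, have no detection call, so their differences are the least certain.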
